A study of Mus musculus with 121 samples.

Results

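Unirradiated transplants of a mouse mammary carcinoma, called mmca in the sample titles, were profiled 9 days and 1 day into a gamma-ray experiment, and the change over that interval is described here. The arrays were chosen by their titles and not by any measured value. They number 4, 2 at day 9 and 2 at day 1, beside 117 other arrays in the series. The series followed gene expression in 6 murine tumours after irradiation. Male C3H/HeMs mice carried the tumours in the hind leg, and these 4 tumours received no irradiation. The carcinoma arose spontaneously in a C3H/He mouse. At day 9 the description counts 9 days from a point at which no irradiation was given, and at day 1 the day stands in the title alone. The age of the mice and the size of the tumours are not given in the sources used here. Nothing in the labels ties the 2 arrays of a day to separate animals, so the p-values may measure technical spread. The same interval in transplants of this carcinoma given a single local dose of 30 Gy, with 3 arrays at day 9 and 2 at day 1, served for comparison.

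A transplanted carcinoma is a mixture of epithelial tumour cells with host macrophages, lymphocytes, fibroblasts and vessels. As it grows, the tumour cells cycle, which needs periodic mitotic genes, ribosomes and proteasomes, while the host cells enter and mature. Mammary carcinoma cells descend from an epithelium with a luminal layer and a basal layer, and use ErbB, Wnt and insulin-like growth factor signals. In such bulk tissue, fewer cells of a type and less RNA per cell cannot be told apart.

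The epithelial identity of the tumour was visible in all 4 arrays. Epcam, an epithelial adhesion molecule, had intensities of 179 and 155 at day 9, against 172 and 173 at day 1. In a fibrosarcoma of the same series, nfsa, it had 0.894 and 0.913. Intensities are the deposited linear values, with the median probe of an array near 1 when probes without a value are counted as low. Krt7, a luminal keratin, had 129 and 195 at day 9 and 178 and 205 at day 1, against 0.997 and 0.896 in nfsa. The fibroblast receptor gene Pdgfra had 3.04 and 2.14 at day 9 and 3.18 and 3.19 at day 1, against 83.6 and 96.5 in nfsa. Krt18, Cd68 and Csf1r had no probe under these symbols.

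Across the genome, more genes fell than rose. Of 12909 genes tested with limma, 884 rose (6.85%) and 1859 fell (14.4%) at an adjusted p under 0.05, and 21.2% were called in either direction. At an unadjusted p under 0.05 there were 4263 genes. Changes of at least 2-fold were fewer, at 110 genes higher at day 9 (0.852%) and 31 lower (0.240%). Groups that did not overlap were found for 876 genes called higher (6.79%) and 1839 called lower (14.2%). The median change over all genes was -0.06 on the log2 scale. The split between rises and falls depended on the scaling: after quantile normalization 2557 genes rose and 597 fell, and the median of all genes was 0.15. With missing values set to the lowest level before that normalization, 911 rose and 879 fell, with a median of 0.02. Each list of genes below is therefore to be read against the counts and the median of all genes on the same scale. Called genes numbered 1282 without the first day 9 array, 1370 without the second day 1 array, and 504 when the 4 arrays were fitted alone.

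The day 9 arrays had a wider range of intensities. Their brightest probes reached 416 and 545, against 256 and 316 at day 1, and 9.99% and 10.4% of their probes had no value, against 13.7% and 14.3% at day 1. The part of this range in the scale-dependent results was not tested. The 2 arrays of a group correlated at 0.988 at day 9 and 0.996 at day 1 across genes, and 0% of values at day 9 and 0.0468% at day 1 were identical between the 2 arrays. The first day 9 array also had more signal from skeletal muscle genes. Its summed level over the muscle list was 66.3, against 38.1 in the second day 9 array and 36.7 and 38.0 at day 1. Of 29 muscle genes tested with limma, 0 were called and 0 had an unadjusted p under 0.05. Acta1, skeletal muscle actin, had 6.09 and 1.78 at day 9 and 1.05 and 1.09 at day 1.

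**Figure D1:**
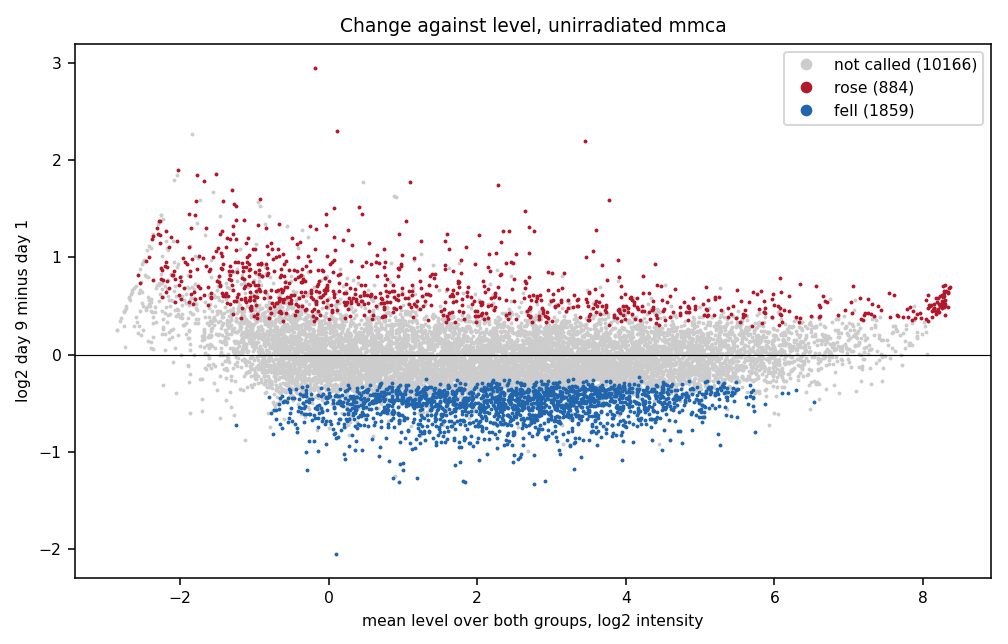
Change of each gene from day 1 to day 9 (log2 of day 9 over day 1, vertical) against its mean level over the 4 unirradiated arrays (log2 intensity, horizontal), with genes that rose in red, genes that fell in blue and genes not called in grey. The 884 rises gather at the dim end and at the bright tip, and the 1859 falls lie mostly between.

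The level of a gene was related to its direction. With the genes divided into 5 equal bins by level, 13.2% rose and 4.42% fell in the dimmest bin, whereas 5.23% rose and 16.1% fell in the next brighter one. In the brightest bin 7.51% rose and 10.03% fell. Values below 0.1269 were raised to that floor, so fold changes of genes near it at day 1 depend on it.

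Macrophage genes were higher at day 9. Of 25 macrophage genes tested, 10 rose and 1 fell, against 6.85% and 14.4% of all genes. Their median change was 0.46, against -0.06 for all genes. Above that background the list stood 0.53 higher, and 0.41 higher after quantile normalization. The summed level of the list was 395 and 304 at day 9, against 236 and 244 at day 1. The 2 groups did not overlap in this sum, and the first day 9 array, which had the higher muscle signal, was the higher of its pair. Without that array fewer macrophage genes were called higher, and the list stood 0.37 above the median of all genes. With missing values at the lowest level and quantile normalization, 5 rose and 2 fell.

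Fcer1g encodes the common gamma chain that carries the signal of Fc receptors. It had 13.2 and 7.90 at day 9, against 4.02 and 4.22 at day 1. It rose by 1.31 on the log2 scale (SE 0.21, adjusted p = 2.99e-06, limma). Ms4a7, a membrane protein of mature macrophages, had 1.02 and 0.824 at day 9 and 0.268 and 0.343 at day 1. The change was 1.60 (SE 0.27, adjusted p = 8.27e-06, limma). Itgam, the CD11b integrin chain of myeloid cells, had 1.25 and 1.10 at day 9, against 0.552 and 0.608 at day 1, a change of 1.01 (SE 0.20, adjusted p = 9.52e-05, limma). These 3 genes stayed called under each of the 16 alternative settings. Aif1, an actin-binding protein of activated macrophages, had 20.1 and 12.2 at day 9 and 7.55 and 8.11 at day 1, and rose by 1.00. Its call was lost without the first day 9 array. Trem2, a lipid-sensing receptor of tissue macrophages, went the other way. It had 4.81 and 4.09 at day 9, against 7.10 and 6.98 at day 1, a change of -0.67 (SE 0.16, adjusted p = 0.00133, limma). Trem2 lay outside the rule for named genes and is given because it was the 1 macrophage gene that fell.

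Complement genes were also higher at day 9. Of 12 tested, 5 rose and 0 fell, against 6.85% and 14.4% of all genes, and their median change was 0.57. C1qa, C1qb and C1qc, which encode the chains of C1q and are made by macrophages, make up 3 of the 5 and stand on both lists. C1qa had 22.5 and 13.7 at day 9, against 8.88 and 9.66 at day 1, a rise of 0.93 (adjusted p = 5.56e-04, limma). C1qc rose by 0.64 and C1qb, also named after its values were seen, by 0.59. C3ar1, the receptor for the C3a fragment, had 11.7 and 7.46 at day 9 and 4.46 and 4.61 at day 1, a change of 1.04 (SE 0.23, adjusted p = 4.04e-04, limma). Masp1, a protease of the lectin pathway, had 0.744 and 0.255 at day 9 and 0.176 and 0.179 at day 1. The first day 9 array was the higher in each of these genes, and without it no complement gene was called.

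Chemokine genes moved in both directions. Of 19 tested, 6 rose and 3 fell, against 6.85% and 14.4% of all genes, with a median of 0.23. Ccl8, a monocyte attractant, had 8.95 and 12.03 at day 9, against 3.69 and 3.77 at day 1, a change of 1.48 (SE 0.47, adjusted p = 0.0183, limma). Ccl9, a macrophage chemokine of rodents, had 3.41 and 1.61 at day 9 and 1.26 and 1.16 at day 1. Ccl11, which attracts eosinophils, rose by 1.58, but its day 9 arrays were far apart at 1.33 and 0.313, with 0.238 and 0.197 at day 1. Ccl17, a ligand of CCR4, had a value on 1 day 9 array alone, 0.604, against 0.261 and 0.269 at day 1. The 3 that fell were Ccl4, Ccl22 and Cx3cl1, which were named after their values were seen. Ccl4, a T cell and monocyte attractant, had 5.33 and 4.10 at day 9, against 7.11 and 7.17 at day 1. Ccl22, the other CCR4 ligand, had 3.16 and 2.83 at day 9 and 4.15 and 4.41 at day 1, and Cx3cl1, fractalkine, changed by -0.39. After quantile normalization 8 chemokine genes rose and 0 fell, where 2557 of all 12909 genes rose and 597 fell. With missing values at the lowest level and quantile normalization 3 rose and 1 fell. Without the first day 9 array the list stood 0.16 above the median of all genes, against 0.29 with both and 0.37 without the second.

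The promoters of 3 genes that rose are shown with the motifs searched in them, because mitotic promoters are known for the CHR element and the CCAAT box and myeloid promoters for the PU.1 site. The sequences are the 250 bases before the start of the RefSeq gene in build GRCm38.p6, with motif letters in capitals. Motifs were searched on both strands as TTTGAA for CHR, CCAAT for the CCAAT box and GAGGAA for the core of the PU.1 site.
Itgam, chr7:128062390-128062639, plus strand: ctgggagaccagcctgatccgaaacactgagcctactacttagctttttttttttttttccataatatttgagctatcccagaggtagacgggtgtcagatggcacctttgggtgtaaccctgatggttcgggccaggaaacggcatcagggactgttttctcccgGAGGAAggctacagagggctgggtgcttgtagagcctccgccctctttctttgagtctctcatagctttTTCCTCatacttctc
Plk1, chr7:122159185-122159434, plus strand: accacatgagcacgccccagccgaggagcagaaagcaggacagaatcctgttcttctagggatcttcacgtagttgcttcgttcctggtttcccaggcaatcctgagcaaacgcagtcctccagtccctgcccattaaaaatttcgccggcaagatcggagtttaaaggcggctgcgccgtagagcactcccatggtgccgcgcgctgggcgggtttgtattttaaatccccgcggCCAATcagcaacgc
Ccnb2, chr9:70421555-70421804, minus strand: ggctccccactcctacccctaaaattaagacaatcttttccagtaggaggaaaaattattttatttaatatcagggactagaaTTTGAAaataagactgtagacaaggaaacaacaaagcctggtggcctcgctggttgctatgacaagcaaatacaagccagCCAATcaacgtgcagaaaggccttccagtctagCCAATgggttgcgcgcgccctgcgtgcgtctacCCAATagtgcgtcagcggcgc

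In the Itgam promoter the 2 capital stretches are GAGGAA on either strand, 84 and 15 bases before the start, and they do not overlap. GAGGAA stood in 13 of the 20 tested macrophage promoters with a sequence (65%), in 6 of the 8 that rose (75%), and in 23.1% of 27025 promoters of the same length. The Fcer1g promoter held no match, which says only that these letters are not in that window. In the Plk1 promoter the capitals mark 1 CCAAT box, 14 bases before the start. The Ccnb2 promoter held CCAAT boxes at 87, 54 and 21 bases and a CHR match at 167 bases before the start. CCAAT stood in 23 of 31 mitotic promoters (74.2%), in 8 of the 9 whose genes rose (88.9%), and in 34.5% of all promoters. CHR letters stood in 11 of 31 (35.5%), in 4 of the 9 (44.4%), and in 16.3% of all. A match is a description of the sequence and not a site.

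Few genes of antigen presentation and lymphocytes were called, although the medians of most of these lists lay above that of all genes. Without the first day 9 array, the class II list stood 0.01 above all genes, against 0.38 with both arrays. The class I list stood 0.12 above without that array, against 0.33 with both. In the list of dendritic cell and MHC class II genes, 2 of 14 rose and 2 fell, with a median of 0.32. Of all genes, 6.85% rose and 14.4% fell. H2-Eb1, a class II beta chain, had 29.3 and 12.1 at day 9, against 7.63 and 7.93 at day 1, a rise of 1.28. Cd83, a marker of mature dendritic cells, had 0.576 and 0.402 at day 9 and 0.233 and 0.247 at day 1. H2-DMb1, which helps load class II peptides, had 1.03 on each array at day 9, against 1.34 and 2.12 at day 1. Clec9a, a receptor of cross-presenting dendritic cells, changed by -0.61. In the MHC class I list 2 of 11 rose and 1 fell, with a median of 0.27. H2-D1, a classical class I heavy chain, had 234 and 232 at day 9 and 169 and 185 at day 1, while H2-Q1, a class I gene of the Q region, had 10.6 and 5.88 at day 9 and 4.86 and 2.21 at day 1. The call of H2-D1 was lost under 6 of the 16 alternatives and that of H2-Q1 under 4. Class I genes are near-identical copies, and how the probes divide them is uncertain. Nlrc5, the class I transactivator, changed by -0.40.

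Among 19 T and NK cell genes 1 rose and 1 fell, against 6.85% and 14.4% of all genes. Klrd1, the CD94 chain of NK receptors, had 0.554 and 0.358 at day 9, against 0.169 and 0.160 at day 1. Cd247, the zeta chain of the T cell receptor, had 3.64 and 3.85 at day 9 and 5.01 and 4.71 at day 1. The median of the list was 0.58, which is 0.64 above that of all genes. It stood 0.15 above that of all genes with missing values at the lowest level and quantile normalization. Without the first day 9 array it stood 0.14 above. Of 9 B and plasma cell genes, 0 rose and 2 fell. Cd79a, a chain of the B cell receptor, had 5.69 and 5.80 at day 9, against 8.11 and 8.71 at day 1, a change of -0.55 (SE 0.11, adjusted p = 2.06e-04, limma). Cd22, an inhibitory receptor of B cells, changed by -0.36. Cd72, a C-type lectin of B cells and myeloid cells, was on no list but was among the 15 largest rises. It had 5.25 and 2.98 at day 9 and 1.15 and 1.17 at day 1, a change of 1.77 (SE 0.31, adjusted p = 1.76e-05, limma). Of 15 neutrophil genes and 8 mast cell genes, limma called 0 in either direction, with 2 and 0 at an unadjusted p under 0.05.

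Of 36 genes of mitosis and G2/M, 9 rose and 0 fell, against 6.85% and 14.4% of all genes, and 27 were not called. The median change was 0.28. The list stood 0.34 above the median of all genes, and equally 0.34 above it after quantile normalization. On that scale 21 mitotic genes rose, beside 2557 of all 12909 genes. Plk1, the polo kinase that drives mitotic entry and spindle assembly, had 1.87 and 1.59 at day 9, against 0.918 and 0.852 at day 1. Both day 9 arrays lay well above both day 1 arrays, and the change was 0.96 (SE 0.20, adjusted p = 2.13e-04, limma). Ccnb2, a B-type cyclin, had 74.4 and 67.9 at day 9 and 47.4 and 43.1 at day 1, a change of 0.65 (SE 0.18, adjusted p = 0.00515, limma). Pttg1, securin, had 4.17 and 2.97 at day 9 and 2.27 and 1.83 at day 1, and Cenpe, a kinetochore motor, changed by 0.96 with 1.25 and 0.706 at day 9 and 0.651 and 0.355 at day 1. Mki67, the Ki-67 proliferation antigen, had 123 and 114 at day 9 and 90.8 and 80.4 at day 1 but did not pass the filter on missing values and was not tested. Few of these calls held with fewer arrays, where fewer genes were called in all. The list stood 0.25 above the median of all genes without the first day 9 array. It stood 0.31 above without the second day 1 array.

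Of 38 genes of DNA replication 3 rose and 1 fell, against 6.85% and 14.4% of all genes, with a median of 0.13. Rrm1, the large subunit of ribonucleotide reductase, had 0.735 and 0.575 at day 9, against 0.412 and 0.274 at day 1. Orc6, a subunit of the origin recognition complex, rose by 0.49, and Rpa2, of the single-strand binding complex, by 0.55. Lig1, the replicative DNA ligase, had 2.12 and 2.16 at day 9, against 2.99 and 2.89 at day 1, a change of -0.46 (SE 0.12, adjusted p = 0.00258, limma). After quantile normalization 10 replication genes rose and 0 fell, where 2557 of all 12909 genes rose and 597 fell. The list stood 0.19 above the median of all genes as deposited and 0.17 above it after quantile normalization.

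Proteasome genes rose in 8 of 27 cases, and 0 fell, against 6.85% and 14.4% of all genes, with a median of 0.20. Psma1, an alpha subunit of the core particle, had 111 and 98.6 at day 9, against 60.01 and 67.05 at day 1. It rose by 0.72 (SE 0.14, adjusted p = 6.24e-05, limma) and stayed called under each of the 16 alternatives. Psma3, another alpha subunit, had 180 and 168 at day 9 and 110 and 123 at day 1, Psma6 rose by 0.51, and Psmc6, an ATPase of the regulatory particle, rose by 0.47. The summed level of the list was 2346 and 2374 at day 9, against 1888 and 2008 at day 1. Without the first day 9 array fewer proteasome genes were called. The list then stood 0.25 above the median of all genes, against 0.26 with both. Of 37 respiratory chain genes 3 rose and 0 fell, with a median of 0.10. Cox5a, a subunit of cytochrome oxidase, had 14.7 and 13.5 at day 9, against 8.41 and 9.79 at day 1, while Ndufa5 of complex I rose by 0.46 and Uqcrfs1, the Rieske protein of complex III, by 0.44.

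Ribosomal protein genes gave the highest share of rises among the 39 lists, but the result rested on the scaling. As deposited, 25 of 27 rose and 0 fell, with a median of 0.53. After quantile normalization 3 rose, and the list stood at -0.10 relative to all genes, the opposite side from the 0.60 of the deposited scale. With missing values at the lowest level and quantile normalization 2 rose, and the list stood 0.03 above all genes. Rplp1, an acidic protein of the ribosomal stalk, had 25.3 and 22.2 at day 9, against 10.1 and 6.19 at day 1. Its change of 1.59 (SE 0.23, adjusted p = 3.09e-07, limma) was called under each alternative. Rpl32 had 333 and 466 at day 9 and 219 and 265 at day 1, and Rpl30 had 320 and 545 at day 9 and 235 and 283 at day 1. Rps9 rose by 0.70. Other genes as bright moved in the same way: of 68 genes outside the list with a mean intensity of at least 200, 44 rose and 0 fell, with a median of 0.42, beside 22 of 23 ribosomal protein genes at that level. Ribosomal protein genes have many pseudogene copies that a probe can share.

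**Figure D2:**
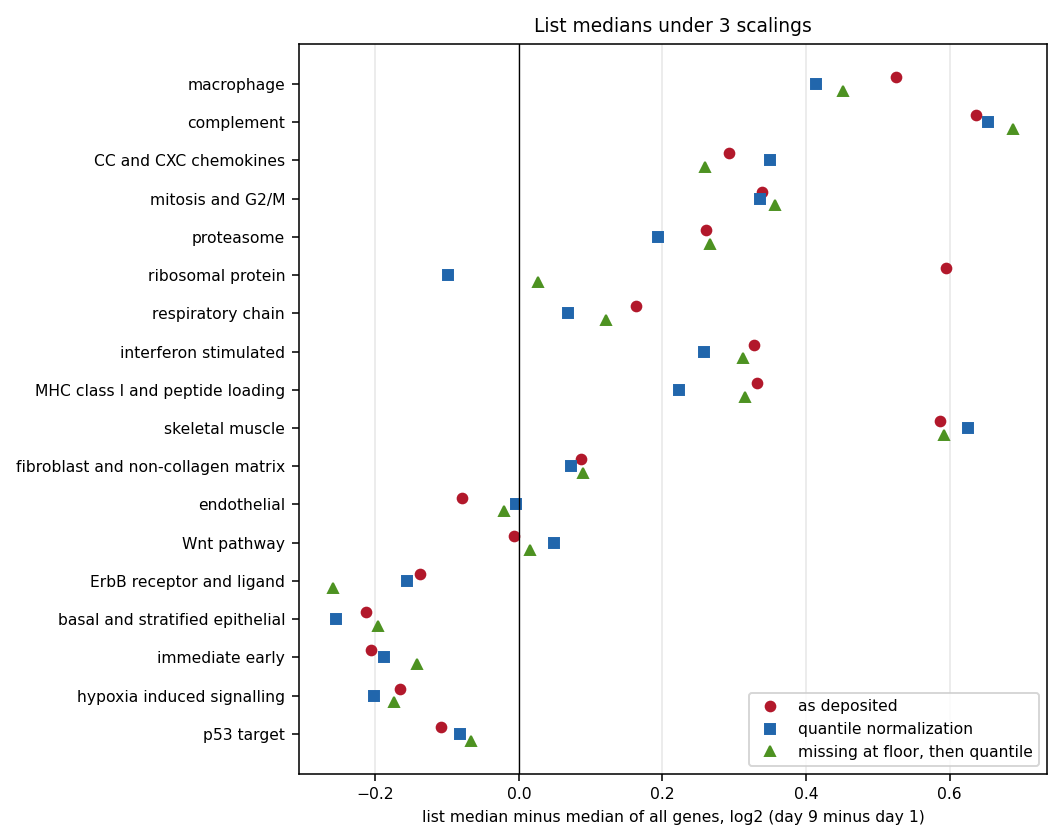
Median log2 change (day 9 over day 1) of 18 gene lists minus the median of all genes tested, under the deposited scaling, quantile normalization, and quantile normalization after missing values were set to the floor. The ribosomal protein list lies at 0.60 as deposited and at -0.10 and 0.03 under the other scalings, while the macrophage, complement and mitosis lists stay above 0 under each.

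Of 33 interferon-stimulated genes 3 rose and 0 fell, against 6.85% and 14.4% of all genes, with a median of 0.26. Isg15, a ubiquitin-like protein induced by interferon, had 1.94 and 1.77 at day 9, against 0.891 and 0.658 at day 1. The change was 1.28 (SE 0.23, adjusted p = 2.97e-05, limma), called under each of the 16 alternatives. Bst2, tetherin, had 145 and 107 at day 9 and 79.3 and 84.4 at day 1, and Ifi35 rose by 0.54. After quantile normalization 9 of the 33 rose, where 2557 of all 12909 genes rose. Without the first day 9 array the list stood 0.05 above the median of all genes, against 0.33 with both.

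**Figure D3:**
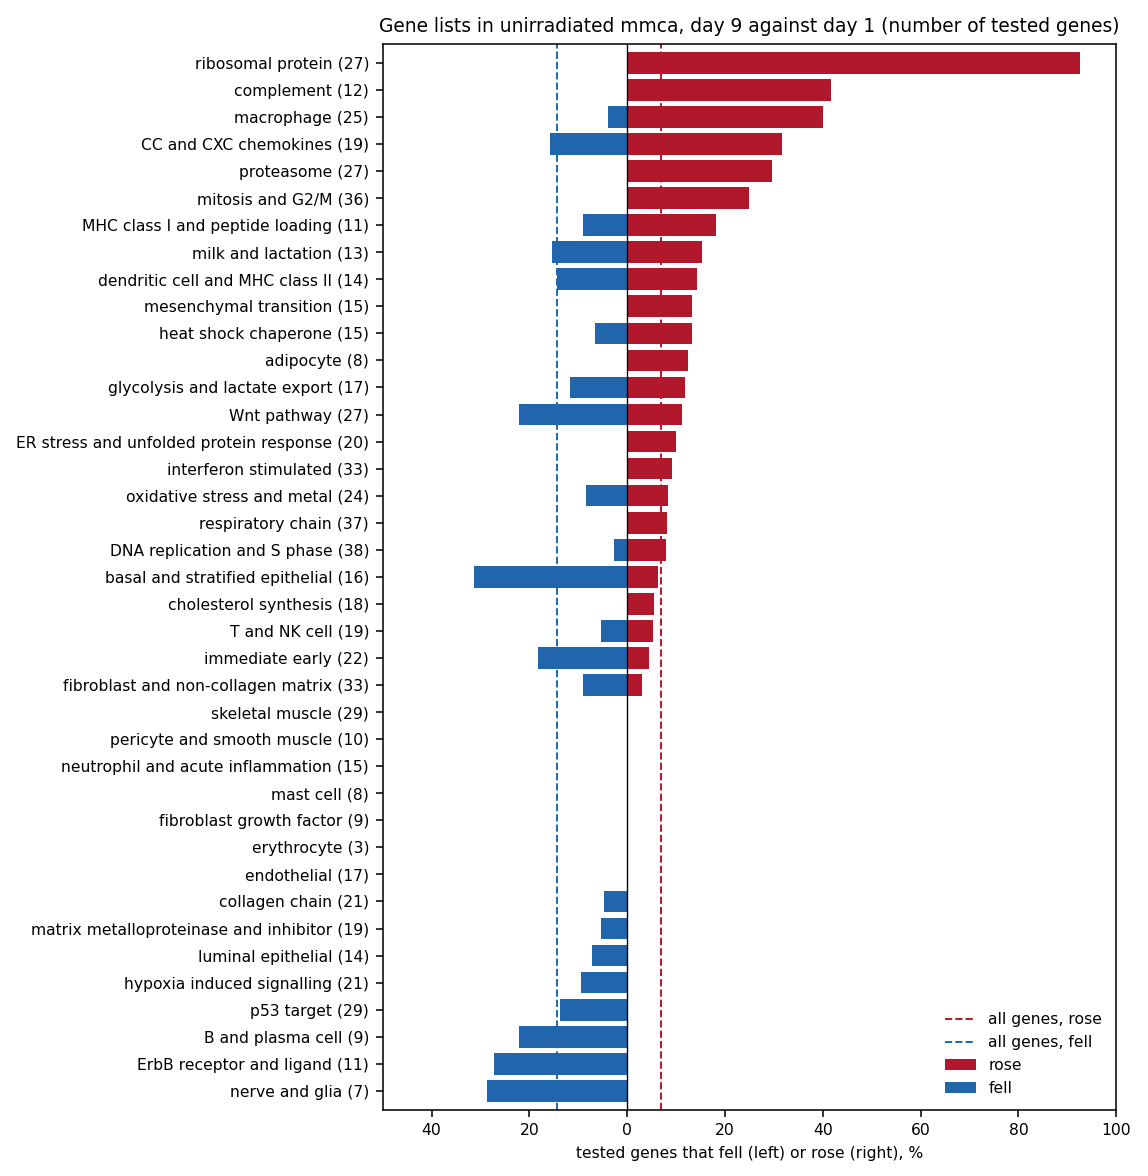
Share of the tested genes of each list that rose (bars to the right, %) or fell (bars to the left, %) at day 9 relative to day 1, with dashed lines at the shares of all genes, 6.85% and 14.4%. Ribosomal protein, complement and macrophage genes extend farthest to the right, and basal epithelial genes, with 5 of 16, farthest to the left.

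The growth factor genes Igf2 and Igf1 were higher at day 9, and several ErbB genes were lower. No list of insulin-like growth factor genes was tested. Igf2, a fetal growth factor of the insulin family, had 0.864 and 0.575 at day 9, against 0.235 and 0.249 at day 1, a change of 1.54 (SE 0.27, adjusted p = 1.09e-05, limma). Igf1, its postnatal relative, had 0.722 and 0.468 at day 9 and 0.166 and 0.171 at day 1, near the floor, with a change of 1.79. Both were named because they were among the 15 largest rises, and both were called under the 15 alternatives that gave them a value. They lay in the dimmest of the 5 bins by level, where 13.2% of genes rose. Of 11 ErbB receptors and ligands, 0 rose and 3 fell, against 6.85% and 14.4% of all genes. The median was -0.20, and -0.00 after quantile normalization. Relative to the median of all genes on the same scale, these were -0.14 and -0.16. Without the first day 9 array the ErbB list stood at 0.03 relative to all genes, and without the second at -0.35. Egfr, the epidermal growth factor receptor, had 5.00 and 5.12 at day 9, against 9.06 and 7.66 at day 1. It was 1.65-fold lower at day 9, a log2 change of -0.72 (SE 0.12, adjusted p = 5.19e-06, limma) that was called under each alternative. Betacellulin, encoded by Btc, binds this receptor and had 2.84 and 4.29 at day 9, against 6.04 and 6.03 at day 1, a change of -0.79 (SE 0.12, adjusted p = 8.17e-07, limma). Erbb4, a further receptor for betacellulin, had 9.06 and 9.202 at day 9 and 12.3 and 12.8 at day 1.

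Wnt pathway genes went both ways, with 3 of 27 higher and 6 lower, against 6.85% and 14.4% of all genes. Their median was -0.07, and 0.20 after quantile normalization. Relative to the median of all genes on the same scale, these were -0.01 and 0.05. Notum, a secreted enzyme that inactivates Wnt proteins and is itself a Wnt target, had 4.12 and 3.59 at day 9, against 6.84 and 7.74 at day 1. Its change was -0.92 (SE 0.12, adjusted p = 1.24e-08, limma). Lef1, a transcription factor of the pathway, had 9.58 and 18.6 at day 9 and 21.1 and 22.8 at day 1. Wnt4, a ligand of the mammary epithelium, had 1.04 and 0.294 at day 9 and 0.142 and 0.166 at day 1, and Sfrp2, a secreted Wnt modulator, had 0.536 and 0.413 at day 9 and 0.169 and 0.179 at day 1. With missing values at the lowest level and quantile normalization the list had 3 rises and 1 fall. Of 9 fibroblast growth factor genes limma called 0, with 1 at an unadjusted p under 0.05.

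Basal epithelial genes fell in 5 of 16 cases and rose in 1, against 14.4% and 6.85% of all genes, with a median of -0.28. The day 9 arrays differed from each other here. Krt14, a basal keratin, had 2.20 and 9.00 at day 9, against 8.03 and 8.96 at day 1, so that 1 day 9 array was low and the other lay with day 1. Its change was -0.93 (adjusted p = 0.0182, limma), and 0.09 without the first day 9 array. Trp63, the transcription factor of basal cells, had 1.69 and 4.35 at day 9 and 5.27 and 4.95 at day 1. Pkp1, a desmosomal plaque protein, had 3.05 and 5.80 at day 9 and 7.28 and 7.61 at day 1. The others that fell were Col17a1, with -0.44, and Lamb3, with -0.57, components of the hemidesmosome and its anchoring matrix. Lamb3 was named after its values were seen. Sprr1a, a cornified envelope protein, rose by 1.86 but had no value on the first day 9 array. Without that array 1 basal gene rose and 0 fell, and without the second 8 fell. Summed over the list, the level was 109 and 165 at day 9, against 169 and 176 at day 1.

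Luminal genes showed 1 fall and 0 rises among 14, against 14.4% and 6.85% of all genes. The luminal gene that fell was Prom1, prominin, with 5.81 and 6.46 at day 9, against 8.85 and 8.33 at day 1. Epcam, with values given above, changed by -0.05 (adjusted p = 0.858, limma) and Krt8 by -0.34, neither of them called. The basal keratin Krt5 changed by -0.36 and was not called. Its day 9 arrays, 0.320 and 1.02, lay on either side of day 1, with 0.682 and 0.790. Of 13 milk and lactation genes 2 rose and 2 fell. Xdh, xanthine dehydrogenase of the milk fat globule, had 2.81 and 2.28 at day 9, against 1.397 and 1.49 at day 1, a change of 0.81 (SE 0.17, adjusted p = 1.84e-04, limma). Ltf, lactoferrin, had 2.75 and 7.30 at day 9 and 1.90 and 2.36 at day 1. Lalba, alpha-lactalbumin, changed by -0.36 and the casein gene Csn1s2a by -0.33.

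**Figure D4:**
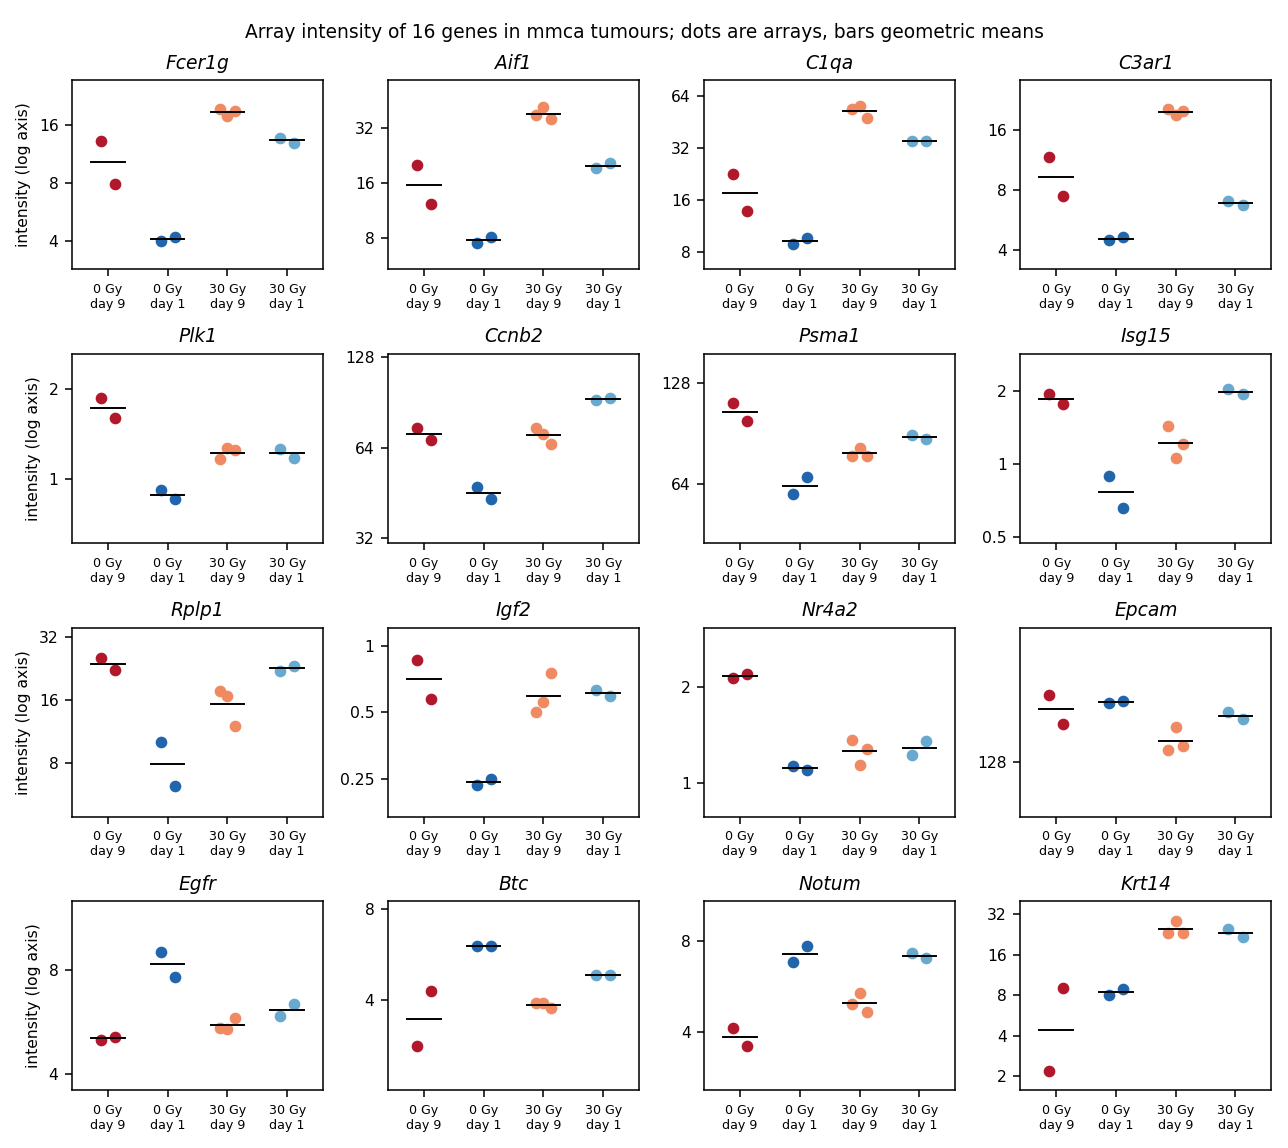
Intensity (log axis) of 16 genes on each array, with points for arrays and bars for the geometric mean of a group, in unirradiated tumours at day 9 and day 1 and in tumours given 30 Gy at day 9 and day 1. Fcer1g has 13.2 and 7.90 in unirradiated tumours at day 9, against 4.02 and 4.22 at day 1, and Krt14 is low on 1 of the 2 unirradiated day 9 arrays.

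Immediate early genes respond within minutes to growth factors and handling. Of 22, 4 fell and 1 rose, against 14.4% and 6.85% of all genes, with a median of -0.27. Jun, an AP-1 subunit, had 27.2 and 25.4 at day 9, against 39.5 and 39.7 at day 1, a change of -0.59 (SE 0.15, adjusted p = 0.00197, limma). Zfp36, which destabilises cytokine mRNAs, had 8.88 and 8.63 at day 9 and 12.5 and 13.6 at day 1. Klf4 had 15.4 and 42.5 at day 9 and 39.5 and 43.2 at day 1, and it fell by 0.69 on the log2 scale, with 1 day 9 array low. Nr4a2, an orphan nuclear receptor, rose, with 2.12 and 2.19 at day 9 and 1.13 and 1.10 at day 1, a change of 0.95 (SE 0.17, adjusted p = 3.18e-05, limma). After quantile normalization 1 immediate early gene rose and 1 fell. The list then stood at -0.19 relative to the median of all genes, against -0.21 as deposited. Without the first day 9 array it stood at -0.06, and without the second at -0.14.

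Of 21 genes of hypoxia-induced signalling 0 rose and 2 fell, against 6.85% and 14.4% of all genes, with a median of -0.23. After quantile normalization 0 fell and the median was -0.05. Relative to the median of all genes, the list stood at -0.17 as deposited and at -0.20 after quantile normalization. Without the first day 9 array it stood at -0.07. Cited2, a transcriptional modulator, had 1.97 and 2.55 at day 9, against 4.37 and 2.88 at day 1, and P4ha1, a collagen prolyl hydroxylase subunit, changed by -0.48. Vegfa, the vascular growth factor, had 72.9 and 99.9 at day 9 and 87.2 and 104 at day 1 (change -0.16, adjusted p = 0.723, limma). Glycolysis genes had 2 rises and 2 falls among 17. Tpi1, triosephosphate isomerase, had 26.8 and 23.2 at day 9 and 16.6 and 12.1 at day 1, and Ldha, lactate dehydrogenase A, had 263 and 315 at day 9 and 197 and 233 at day 1. The call of Ldha was lost under 7 of the 16 alternatives and that of Tpi1 under 3. Pdk1, a kinase that limits pyruvate oxidation, changed by -0.82 with a value on 1 day 9 array. The probe named Gapdh had 0.852 and 0.978 at day 9, against 1.55 and 2.08 at day 1, and is dim for a gene known to be abundant.

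Of 29 targets of p53, 4 fell and 0 rose, against 14.4% and 6.85% of all genes. After quantile normalization 3 rose and 0 fell, where 2557 of all 12909 genes rose and 597 fell. The members that fell were Apaf1, the scaffold of the apoptosome, Tnfrsf10b, a death receptor, Plk3, a stress kinase, and Bbc3, the Puma protein. Their changes were between -0.49 for Tnfrsf10b and -0.37 for Bbc3. Cdkn1a, the p21 cell cycle inhibitor, had 14.9 and 16.9 at day 9, against 18.1 and 16.6 at day 1 (change -0.12, adjusted p = 0.695, limma). Mdm2 changed by 0.14 and Ccng1 by 0.11, neither called. Chaperone genes had 2 rises and 1 fall among 15. Hspa1a, the inducible Hsp70, had 5.10 and 4.55 at day 9 and 12.1 and 11.6 at day 1, a change of -1.30 (SE 0.45, adjusted p = 0.0291, limma). Its call was lost under 7 of the 16 alternatives. Hspe1, the mitochondrial Hsp10, rose by 0.80, and Cct2, a subunit of the cytosolic chaperonin, by 0.56. In the list of endoplasmic reticulum stress 2 of 20 rose, Manf by 0.57 and Dnajc3 by 0.50, and 0 fell.

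In the oxidative stress list 2 of 24 rose and 2 fell, against 6.85% and 14.4% of all genes. Fth1, ferritin heavy chain, had 344 and 420 at day 9, against 231 and 270 at day 1, and Prdx1, a peroxiredoxin, had 208 and 223 at day 9 and 168 and 162 at day 1. The call of Fth1 was lost under 3 of the 16 alternatives, among them both with quantile normalization. That of Prdx1 was lost under 9, also among them both with quantile normalization. Nqo1, a quinone reductase, had 2.10 and 2.77 at day 9 and 3.71 and 3.68 at day 1, and Cat, catalase, changed by -0.40. Cholesterol synthesis had 1 rise among 18 genes, Hsd17b7, with 1.03 and 0.984 at day 9 and 0.526 and 0.631 at day 1.

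Few stromal genes were called, and the 2 day 9 arrays differed in the fibroblast and collagen lists. Of 33 fibroblast and non-collagen matrix genes 1 rose and 3 fell, against 6.85% and 14.4% of all genes, with a median of 0.02. Their summed level was 457 and 386 at day 9, against 444 and 478 at day 1. The mean log2 level was 2.49 and 1.92 at day 9, against 2.08 and 2.16 at day 1. Relative to all genes, the fibroblast list stood at -0.23 without the first day 9 array and at 0.26 without the second. The collagen list stood at -0.02 and 0.39. Ccn2, connective tissue growth factor, had 35.1 and 46.8 at day 9 and 66.2 and 74.8 at day 1, and Ccn1, a related matricellular protein, had 5.50 and 8.38 at day 9 and 11.3 and 10.8 at day 1. Eln, elastin, changed by -0.42. Mfap2, a microfibril protein, rose by 1.24, with 0.375 and 0.258 at day 9 and 0.132 on the 1 day 1 array with a value. Of 21 collagen genes 0 rose and 1 fell, Col17a1, and of 19 metalloproteinases and inhibitors 0 rose and 1 fell. That protease was Mmp10, stromelysin 2, with 0.752 and 1.62 at day 9 and 2.001 and 2.03 at day 1. The mesenchymal transition list had 2 rises among 15: Tgfbi, a matrix protein induced by TGF-beta, with 3.33 and 1.499 at day 9 and 1.29 and 0.932 at day 1, and Snai2, the Slug repressor, with 0.621 and 0.440 at day 9 and 0.276 and 0.244 at day 1. Of 17 endothelial genes limma called 0 (1 at an unadjusted p under 0.05), of 10 pericyte genes 0 (3 unadjusted) and of 3 erythrocyte genes 0 (1 unadjusted). Of 8 adipocyte genes 1 rose, Pparg, the transcription factor of fat cells, by 0.93. Of 7 nerve and glia genes 2 fell, the myelin gene Pmp22, with a change of -0.55, and Prph, peripherin, with -0.73.

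Among the largest changes, Fubp1, a single-strand DNA-binding activator of Myc, had 8.84 and 9.02 at day 9, against 3.01 and 2.35 at day 1. It rose by 1.75 (SE 0.17, adjusted p = 6.24e-12, limma) and was called under each of the 16 alternatives, with changes from 1.57 to 2.14. The largest rise among called genes whose groups did not overlap was 2.94, for the interleukin-1 receptor gene Il1r1. It rested on 1 array, with 0.603 and 9.95 at day 9 and 0.330 and 0.307 at day 1. The largest fall chosen in the same way was that of Ppy, pancreatic polypeptide, at 0.513 and 0.537 at day 9, against 2.22 and 2.11 at day 1. It was 4.12-fold lower at day 9 (log2 change -2.04, SE 0.23, adjusted p = 2.81e-10, limma). Sstr4, a somatostatin receptor, had 4.47 and 4.11 at day 9 and 10.7 and 10.9 at day 1. Asgr1, a subunit of the hepatic asialoglycoprotein receptor, had 2.01 and 2.56 at day 9 and 5.92 and 5.29 at day 1. Unc13a, a synaptic vesicle priming factor, had 2.24 and 2.23 at day 9 and 5.13 and 5.89 at day 1, a change of -1.30 (SE 0.11, adjusted p = 3.60e-14, limma). Ocrl, an inositol phosphatase, had 1.44 and 1.29 at day 9 and 2.74 and 3.15 at day 1. That the 2 groups did not overlap was a condition for choosing these genes and not a result.

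The same interval after 30 Gy gave more calls and many in another direction. In irradiated tumours 2826 of 12948 genes rose (21.8%) and 2738 fell (21.1%) between day 1 and day 9, 43.0% in either direction. The difference between the intervals was tested directly, as the unirradiated change minus the change after 30 Gy. Of 12900 genes, 1561 had a higher change without irradiation (12.1%) and 2599 a lower one (20.1%), 32.2% in all. After quantile normalization these counts were 2758 and 1706. Of the 2742 genes called in unirradiated tumours and tested after 30 Gy, 789 were called the same way and 460 the opposite way after 30 Gy. For 1370 the difference was called. The difference uses the same unirradiated arrays that chose these genes, so a share above the 32.2% of all genes is partly built in.

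On the deposited scale, proteasome, respiratory chain and ribosomal protein genes had higher changes without irradiation. The change after 30 Gy starts 1 day after the dose. The mean log2 level of the proteasome list was 6.52 at day 1 and 6.30 at day 9 after 30 Gy. Unirradiated arrays had 5.95 and 6.03 at day 1 and 6.23 and 6.24 at day 9. Respiratory chain genes had 6.27 then 5.93 after 30 Gy, and 5.81 and 5.92 then 5.95 and 6.08 without irradiation. Ribosomal protein genes had 7.92 then 7.77 after 30 Gy, and 7.53 and 7.61 then 8.03 and 8.27 without irradiation. For the proteasome the unirradiated list had 8 rises and 0 falls, and after 30 Gy 3 rose and 12 fell, with a called difference higher in 15 of 27 genes and lower in 1. Of the respiratory chain genes 2 rose and 24 fell after 30 Gy, and the difference was higher in 24 and lower in 2. Of the ribosomal protein genes 0 rose and 6 fell after 30 Gy, and the difference was higher in 26 of 27. After quantile normalization the difference was called higher in 9 proteasome, 12 respiratory chain and 4 ribosomal protein genes, and lower in 2, 3 and 0. The medians of the differences then stood 0.00 (proteasome), 0.17 (respiratory chain) and -0.06 (ribosomal protein) from that of all genes, against 0.68, 0.78 and 0.69 on the deposited scale. Of 36 mitotic genes 11 rose and 8 fell after 30 Gy, against 21.8% and 21.1% of all genes. Their difference was called higher in 12 and lower in 6, against 12.1% and 20.1% of all genes. Plk1 changed by 0.96 without irradiation and by 0.01 after 30 Gy, a difference of 0.96 (adjusted p = 0.00429, limma). Pttg1 changed by 0.79 without irradiation and by -0.60 after 30 Gy. Ccnb2 changed by 0.65 without irradiation and by -0.40 after 30 Gy. Isg15 changed by 1.28 without irradiation and by -0.70 after 30 Gy, a difference of 1.98 (adjusted p = 7.95e-07, limma).

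Macrophage genes rose in both settings, in 10 of 25 genes without irradiation and in 19 after 30 Gy. Of all genes, 6.85% rose without irradiation and 21.8% after 30 Gy. The difference was called higher in 1 macrophage gene and lower in 8, against 12.1% and 20.1% of all genes. Fcer1g was the gene with the higher change without irradiation. It had 19.4, 17.7 and 18.8 at day 9 after 30 Gy, against 13.7 and 12.9 at day 1 after 30 Gy, and the 2 irradiated day 1 arrays lay near the higher unirradiated day 9 array. Mrc1, the mannose receptor of tissue macrophages, changed by 0.16 without irradiation (adjusted p = 0.798, limma) and by 3.31 after 30 Gy. Mmp12, macrophage elastase, changed by -0.36 without irradiation and by 3.18 after 30 Gy, a difference of -3.54 (adjusted p = 1.90e-06, limma). Trem2 changed by -0.67 without irradiation and by 0.51 after 30 Gy. Fibroblast and non-collagen matrix genes, 33 in number, had 1 rise and 3 falls without irradiation, and 14 rises and 1 fall after 30 Gy. Their difference was called higher in 2 and lower in 9, against 12.1% and 20.1% of all genes.

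Other genes with large differences included Stard7, a lipid transfer protein, with changes of -0.41 without irradiation and 3.10 after 30 Gy, and Gatm, of creatine synthesis, with 0.58 without irradiation and 3.56 after 30 Gy. Camsap2, which binds microtubule minus ends, fell without irradiation, by 1.30 on the log2 scale, and rose by 1.85 after 30 Gy. Among p53 targets, Cdkn1a changed by -1.56, Mdm2 by 1.17 and Ccng1 by -0.50 after 30 Gy, against the unirradiated changes near 0 given above, and the difference was called for each. Igf2 changed by 1.54 without irradiation and by -0.04 after 30 Gy, a difference of 1.58 (adjusted p = 4.17e-04, limma).

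**Figure D5:**
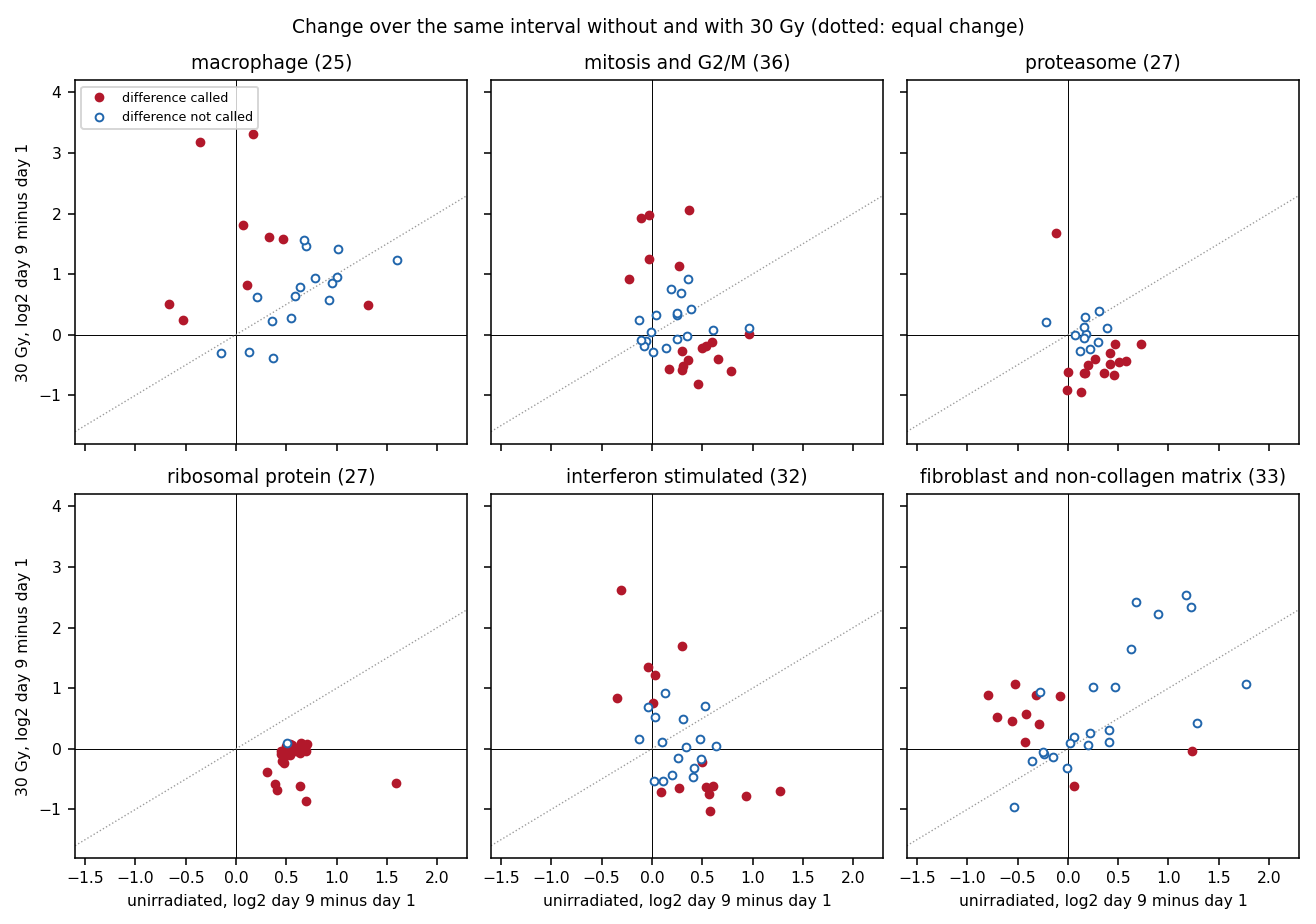
Change from day 1 to day 9 (log2) in unirradiated tumours (horizontal) against the same interval after 30 Gy (vertical) for genes of 6 lists, with filled points where the difference between the intervals was called. Ribosomal protein genes lie below the diagonal, proteasome genes mostly below it, and fibroblast genes mostly above it.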

How the data were processed

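Tumour RNA (ISOGEN and RNeasy) was labelled with Cy5 and hybridised to CodeLink arrays, per the labels' protocols. The authors deposited linear intensity values, 1 table for all arrays, in which the median of each of the 4 arrays is near 1 when missing values are counted as low, and between 1.31 and 1.66 over the measured values alone. How they were normalized, background-corrected and filtered is not given in the sources used here. Of 36227 probes, 21615 had 1 gene symbol, 681 several and 13931 none, and 21487 matched a RefSeq symbol.

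Lower values were raised to 0.1269, where the 5th percentile of all values above 0 lies, and log2 was taken. Probes with a value on at least 90% of arrays and a mean above the 20th percentile were kept, with the brightest probe for each of 12962 genes. Limma 3.58.1 (R 4.3.3) fitted 1 mean for each of 54 groups of the whole table, leaving 67 residual degrees of freedom. It moderated the variances with an intensity trend and gave 2-sided Benjamini-Hochberg adjusted p-values, called under 0.05. So few arrays limit the precision. The members, the 39 lists and the tests were chosen with earlier results of these data known. Named genes are the 15 largest rises and falls with groups that do not overlap, up to 4 called members of largest change in each list, the 5 largest differences each way, and 10 set genes, and exceptions are stated. On simulated data for the unirradiated comparison, with 12909 genes, 90% of changes of 1 on the log2 scale were recovered in either direction, and 24% of rises and 44% of falls of 0.5. Alternatives were other scalings, floors, filters, variance models, sets of arrays, a replicate block and leaving out each array. Motif letters were counted with Python 3.11.15 in RefSeq promoters.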

Additional observations from a re-analysis of the deposited data

Results flagged for a closer look

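The change between day 1 and day 9 differed between unirradiated tumours and tumours given 30 Gy for 4160 of 12900 genes (limma, adjusted p under 0.05 for the difference of the 2 changes). The values in parentheses are the unirradiated change minus the change after 30 Gy, on the log2 scale, for genes named above that were called without irradiation. The same unirradiated arrays chose these genes and enter the difference, so its size is partly set by that choice. Of these 65 genes, the difference stayed called in the same direction for 39 after quantile normalization and for 40 with missing values at the floor and quantile normalization. Among those not called under either were Rpl30 (0.11 and 0.10), Rpl32 (0.072 and 0.067), Psma1 (0.31 and 0.28), Psmc6, Uqcrfs1, Ccnb2 and H2-D1, and the difference for Fth1 turned to -0.11 under both. For Prdx1 it was 0.31 and not called after quantile normalization, and -5.13 with missing values at the floor and quantile normalization.

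Genes with a higher change without irradiation are given by list. In translation and protein turnover these were Rplp1 (2.16), Rps9 (1.56), Rpl30 (0.73), Rpl32 (0.63), Psma1 (0.88), Psma3 (1.01), Psma6 (0.95) and Psmc6 (0.62). In energy metabolism they were Cox5a (0.76), Ndufa5 (0.64), Uqcrfs1 (0.72) and Tpi1 (1.07). In mitosis and replication they were Plk1 (0.96), Pttg1 (1.39), Ccnb2 (1.06) and Orc6 (0.62). Interferon-stimulated and class I genes were Isg15 (1.98), Bst2 (1.23), Ifi35 (1.17), H2-D1 (0.70) and H2-Q1 (1.45). Chaperones and redox genes were Hspe1 (1.17), Manf (1.02), Dnajc3 (0.70), Prdx1 (0.86) and Fth1 (0.46). The remaining genes of this direction were Fcer1g (0.83), Igf2 (1.58), Il1r1 (1.93), Fubp1 (1.25), Nr4a2 (0.99), Xdh (0.84) and Mfap2 (1.27).

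Genes with a lower change without irradiation included genes of matrix and adhesion, with Tgfbi (-2.87), Mmp10 (-2.23), Ccn2 (-1.68), Ccn1 (-1.23), Eln (-0.53) and P4ha1 (-0.66). Epithelial genes were Krt14 (-1.03), Trp63 (-1.37), Pkp1 (-0.78), Prom1 (-1.93) and Ltf (-2.02). Receptors, ligands and Wnt modulators were Egfr (-0.57), Btc (-0.47), Notum (-0.40), Cx3cl1 (-0.43) and Ccl4 (-0.60). Immune receptors were Trem2 (-1.17), Cd79a (-0.61), Cd22 (-0.47) and Cd247 (-0.35). Stress and metabolic genes were Nqo1 (-1.27), Apaf1 (-1.32), Cited2 (-1.06), Gapdh (-0.68) and Pdk1 (-0.57). The others were Pmp22 (-0.62), Camsap2 (-3.15), Asgr1 (-1.90), Ppy (-1.81), Unc13a (-1.06), Ocrl (-1.10) and Sstr4 (-0.83).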

How the results depend on the processing

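Of 122 named genes called in unirradiated tumours, 25 stayed called under each of the 16 alternatives and 2 under the 15 that gave them a value. These alternatives left out arrays or changed the scaling, floor, filter, variance model or arrays fitted. The main count of 2743 called genes became 1790 with missing values at the floor and quantile normalization (911 higher and 879 lower, against 884 and 1859), and 504 when the 4 arrays were fitted alone. Quantile normalization alone gave 2557 higher and 597 lower, and for the difference from 30 Gy 2758 higher and 1706 lower. Leaving out 1 array at a time gave 1282 to 2370 called genes without irradiation, and 3661 to 5139 after 30 Gy, where the lowest count came without the second day 1 array. Of 733 list genes 143 were called, against 88 with missing values at the floor and quantile normalization, 32 in the 4 arrays alone, and 70 to 135 without 1 array. Krt14 reversed to 0.085 and Klf4 to 0.039 without the first day 9 array, and without 1 array they ranged from -1.95 to 0.085 and from -1.42 to 0.039. Ccl17 reversed to -0.083 with missing values at the floor and quantile normalization. The cause of these changes was not tested, apart from the fewer arrays in the fits that leave arrays out. A replicate block gave 2859 called genes, 5311 after 30 Gy, 4182 for the difference and 146 list genes, but the labels do not pair the samples by replicate number: deviations of same-numbered day 9 and day 1 arrays correlated at 0.183, and 5 of 21 group pairs of this carcinoma exceeded 0.1. Signal over background is not given in the sources used here, so the limit it sets on genes near the floor of 0.1269 is unknown.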

Other observations

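The 5 other groups of this carcinoma under gamma rays (30 Gy at day 1 and day 9, 50 Gy at day 1 and day 19, and 70 Gy at day 1) place the unirradiated groups on a wider scale. Of 883 genes that rose in unirradiated tumours, day 1 lay below all 5 of these groups in 498 (56.4%) and day 9 lay above all 5 in 270 (30.6%). Of 1859 genes that fell, day 9 lay below all 5 in 816 (43.9%) and day 1 above all 5 in 974 (52.4%). These shares are descriptions, since the genes were chosen by the same unirradiated arrays.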
